A study of Bos taurus with 12 samples.

Results

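On cattle chromosomes 3 and 8, 2 windows of 1 Mb held methylated DNA peaks packed far more densely than the chromosome around them: positions 82000001 to 83000000 of chromosome 3 and 74000001 to 75000000 of chromosome 8, in the bosTau8 build. Every peak that started in either window was taken, which gave 3969 of the 254474 peaks of the 12 libraries. Of these, 1554 lay in the chromosome 3 window and 2415 in the chromosome 8 window. The windows were chosen by the number of peaks in them, so their number, share and spacing of peaks are given as a description and were not tested. No annotation of this build was used here, so no gene, exon, intron or repeat is named at any of the positions.

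The data were collected by MBD-seq from longissimus muscle of Angus steers of about a year of age, kept together on one diet. The labels call the muscle longissimus dorsi and the Methods call it longissimus lumborum. The beef of 2 of the animals was tender and that of the other 2 was tough, chosen among the animals with the lowest and the highest shear force of the aged meat. Each capture was eluted serially in 3 steps, so each condition, HTE, HTO, MTE, MTO, LTE and LTO, has 2 libraries (H, M and L for the high, medium and low methylated eluate, TE for tender and TO for tough). The sources differ on which salt concentration belongs to which letter, and the libraries are named below by methylation level alone. No group received a treatment, and whole muscle holds cell types besides muscle fibres, so the profiles are averages over the cells of the tissue.

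As background, MBD-seq captures sheared DNA with a methyl-CpG-binding protein, and fragments with more methylated CpGs hold to the protein more tightly. Stepwise elution therefore sorts fragments by the density of methylated CpG. In mammalian somatic tissue, methylated CpG is spread over most of the genome and is plentiful in repeated DNA, such as the satellite arrays near cattle centromeres and the remains of transposable elements. In a tandem array a unit of DNA is repeated head to tail, and reads from such DNA can be hard to place. The authors kept only reads that mapped to a single place. Whether either window holds repeated DNA was not analysed here.

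The libraries held between 3677473 and 7981292 tags after duplicates were removed, and between 9944 and 36663 peaks. High libraries were the shallowest, at 3677473 to 4843388 tags, and LTE_1 had the fewest peaks of all 12 libraries. At most 1 tag per position and strand was kept by the authors' peak caller, so a pileup, the number of extended tags that cover the summit of a peak, cannot exceed 2 times the fragment length, which was 292 to 406 tags across the libraries. No peak was above that ceiling. Pileups were not scaled to depth, and they are compared below mainly as ratios within a library.

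In the chromosome 3 window the number of peaks was 133 in HTE_1, 129 in HTE_2, 130 in HTO_1 and 119 in HTO_2. The medium eluate gave 155 and 177 peaks in tender beef and 170 and 156 in tough beef. The low eluate gave 46 and 77 peaks in tender beef and 127 and 135 in tough beef. Thus the medium libraries held most peaks, and the low libraries split by beef, with both tender libraries below every other library.

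Every library held more peaks in the chromosome 8 window. High libraries held 177 and 182 peaks in tender beef and 169 and 177 in tough beef, and medium libraries held 230 and 229 in tender and 217 and 215 in tough beef. In the low eluate there were 178 and 207 peaks in tender and 198 and 236 in tough beef. The high and medium libraries did not overlap, and within the low eluate tender and tough libraries did. The merged lists, which the authors called on the pooled reads of both replicates, held 148 (HTE), 140 (HTO), 202 (MTE), 188 (MTO), 151 (LTE) and 199 (LTO) peaks in the chromosome 3 window. Their numbers in the chromosome 8 window were 202, 189, 250, 226, 246 and 252 in the same order.

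**Figure D1:**
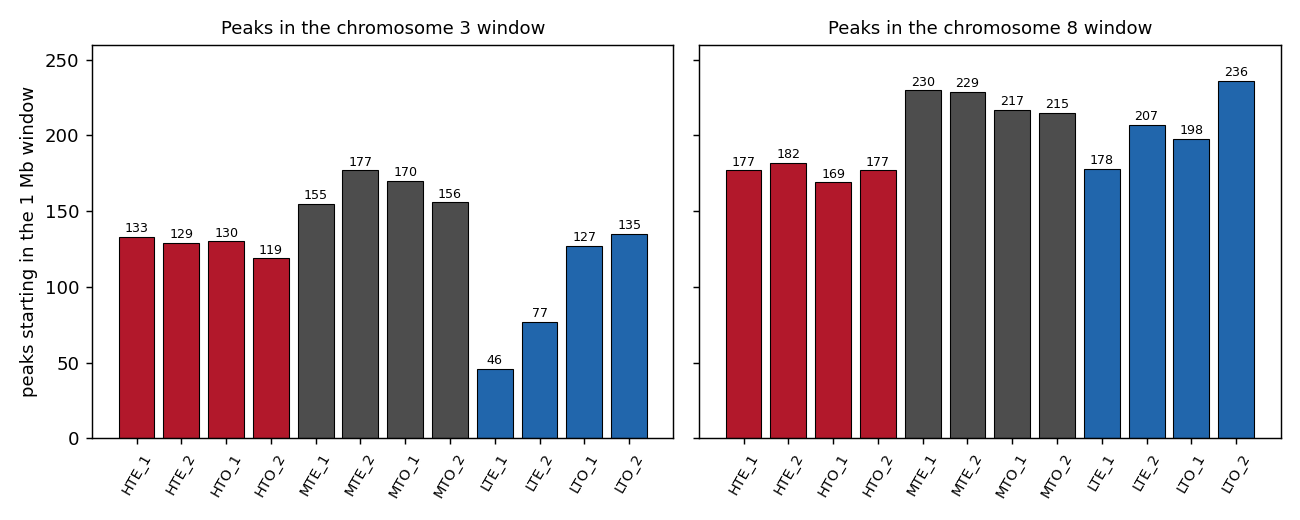
Number of peaks (vertical axis) that start in each window in each of the 12 libraries (horizontal axis), with 1 bar per library, high eluates in red, medium in grey and low in blue. Counts ran from 46 to 177 in the chromosome 3 window and from 169 to 236 in the chromosome 8 window, and the 2 shortest bars are the low tender libraries on chromosome 3.

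Set beside other 1 Mb windows that held a peak, whose median was 2 to 8 peaks in a single library, both windows stood far above their surroundings. The chromosome 8 window ranked 2 of all windows in each library except LTO_1, where it ranked 3. The chromosome 3 window ranked between 3 and 10, with its lowest rank in LTE_1. The neighbouring megabases held 0 to 9 peaks around the chromosome 3 window and 1 to 20 around the chromosome 8 window, so the accumulation stopped within each window.

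As a share of all peaks on their chromosome, the chromosome 3 window held 25.8% ± 2.40 (SD, n = 4) in the high eluate, 14.6% ± 3.06 in the medium eluate and 11.2% ± 0.917 in the low eluate. The chromosome 8 window held 22.5% ± 0.237, 15.5% ± 1.46 and 18.7% ± 5.97 in the same order. High libraries did not overlap the other eluates on chromosome 3. On chromosome 8 they stood above the medium libraries and inside the range of the low ones, which ran from 13.5% to 26.8%, the top value being that of LTE_1. Without LTE_1 the low mean on chromosome 8 was 16.1%. With the same number of peaks taken from each library the chromosome 8 means were 23.8%, 26.9% and 25.6% (high, medium, low), so that the high mean was then below the medium one.

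Inside each window the peaks were not spread evenly but formed 1 compact cluster. When peaks of the 12 libraries that shared 1 bp or more were joined, 203 regions resulted in the chromosome 3 window, and 190 of them lay in a run at chr3:82708538-82912389, a length of 203.852 kb, in which no gap between regions exceeded 10 kb. The chromosome 8 window gave 256 regions, of which 247 lay at chr8:74484525-74804879, a length of 320.355 kb. In a single library, 94.4% to 100% of the peaks of the chromosome 3 window and 97.8% to 99.5% of those of the chromosome 8 window fell into the cluster.

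The ends of the clusters were alike between libraries. On chromosome 3 the first peak of the cluster started between positions 82708538 and 82709305 and the last ended between 82912375 and 82912389 across the 12 libraries. On chromosome 8 the first started between 74484525 and 74484928 and the last ended between 74804551 and 74804879. The densest 50 kb lay at positions 82800001 to 82850000 on chromosome 3, with 50 regions, and at positions 74600001 to 74650000 on chromosome 8, with 43 regions. Joined regions covered 29.1% of the cluster on chromosome 3 and 34.7% on chromosome 8. Each library on its own covered 5.11% to 21.8% of the chromosome 3 cluster, with LTE_1 lowest, and 16.4% to 26.6% of the chromosome 8 cluster. These shares count called peaks only, and tags between the peaks are not in the lists. The background that the peak caller estimated around the peaks is given below.

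**Figure D2:**
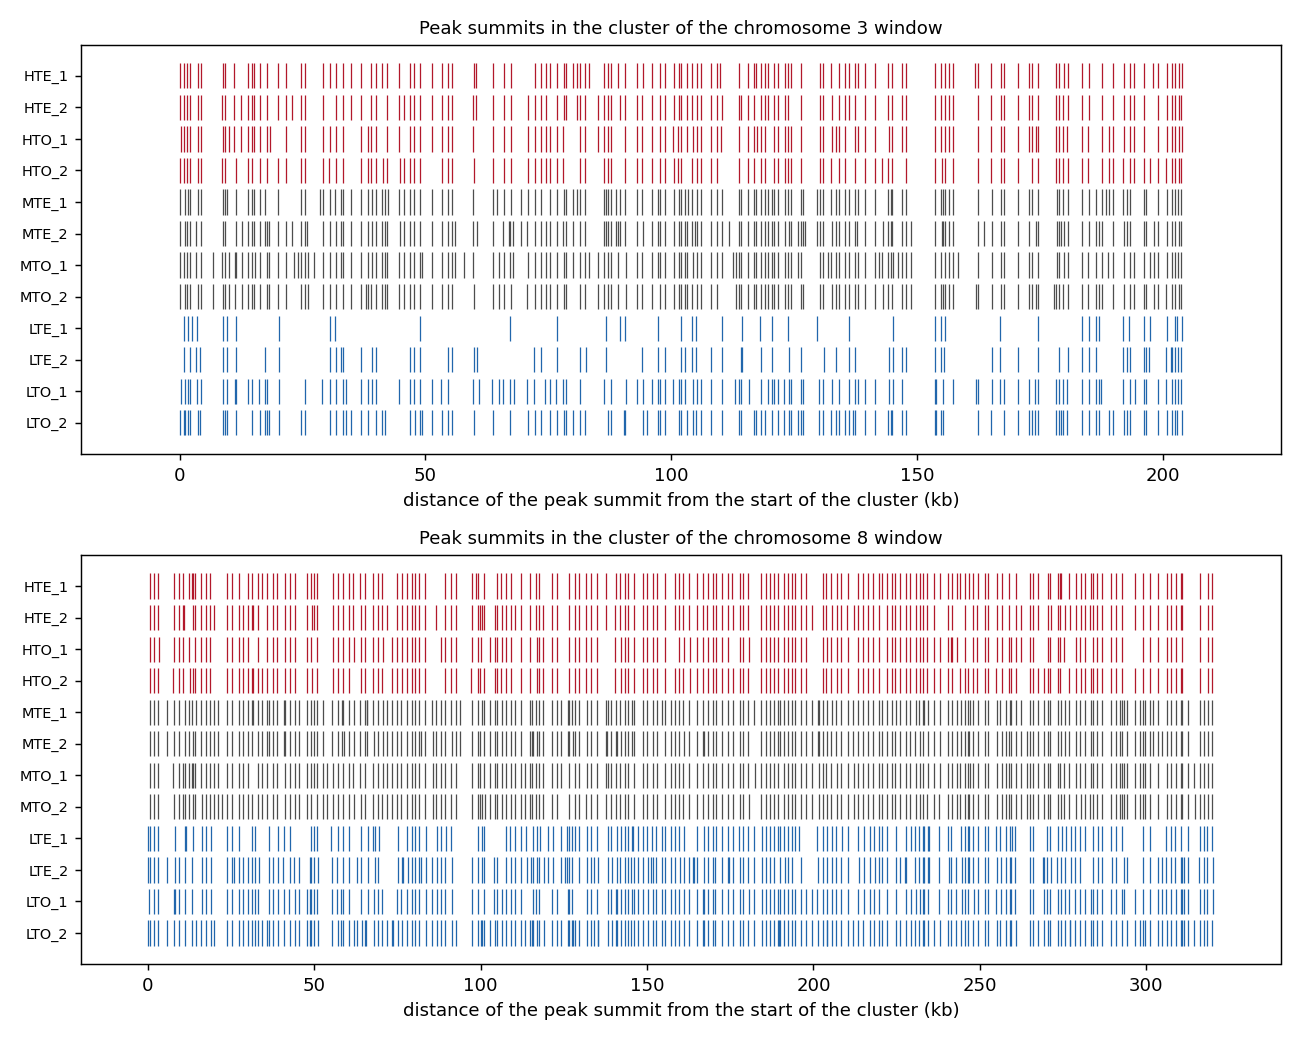
Position of every peak summit (vertical strokes) along both clusters, as distance in kb from the start of the cluster, with 1 row per library and high, medium and low eluates in red, grey and blue. Strokes line up in columns across libraries, the rows of LTE_1 and LTE_2 are thin on chromosome 3, and the cluster lengths are 203.852 and 320.355 kb.

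The most frequent distances between neighbouring summits differed between the clusters. On chromosome 3 the median distance between adjacent summits in the cluster was 1254, 1339.5, 1275 and 1380.5 bp in HTE_1, HTE_2, HTO_1 and HTO_2. It was 987, 1005.5, 1010 and 1066 bp in the medium libraries in the same order of beef, and 3070.5, 1805, 1368.5 and 1140.5 bp in the low ones. The widest medians were those of the low tender libraries, which also had the fewest peaks, and the part of that number in the distance was not tested. The rest of chromosome 3 had median distances of 22202 to 145070 bp. In the chromosome 8 cluster the median distance was 1518.5 to 1555 bp in high libraries. The rest of that chromosome had 1789 to 2886 bp in the same libraries, not far above the cluster. Medium libraries had 1362 to 1416.5 bp in the cluster and 4332 to 12878 bp on the rest. Low libraries had 1324 to 1422 bp and 23333 to 32569 bp. The rest of chromosome 8 includes other dense windows, described below, and its spacing without them is not given.

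Certain distances recurred. With distances counted in classes of 100 bp, the most frequent class on chromosome 3 was 800 to 900 bp in the high eluate (54 of 506 distances) and in the medium eluate (70 of 636). In the low eluate it was 700 to 800 bp (26 of 373), little above 1200 to 1300 bp with 22 and 500 to 600 bp with 21. A class at 500 to 600 bp was also prominent in the medium eluate, with 69 distances. On chromosome 8 the most frequent class was 1400 to 1500 bp in the high eluate (86 of 697) and 1300 to 1400 bp in the medium (105 of 876) and low (88 of 800) eluates.

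Put another way, 31.4%, 34.5% and 28.0% of the distances on chromosome 8 fell between 1200 and 1500 bp in the high, medium and low eluate, against 18.0%, 16.2% and 14.2% on chromosome 3. Distances of 500 to 1000 bp made up 35.2%, 38.5% and 26.0% on chromosome 3 and 9.61%, 14.4% and 11.3% on chromosome 8. The clusters thus differed in spacing, and the difference had the same direction in all 3 eluates. Other dense windows of the genome had a like median spacing, as given below. Libraries of 1 eluate share most of their positions, so distances pooled over 4 libraries are not independent and no test was made.

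**Figure D3:**
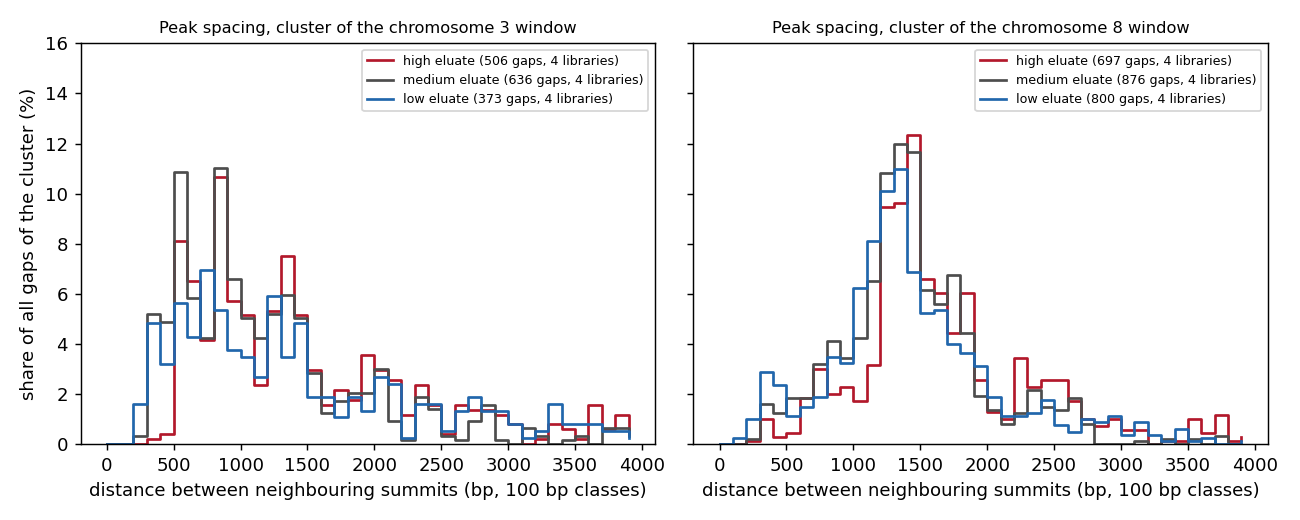
Share of all distances between neighbouring summits (vertical axis, %) in classes of 100 bp (horizontal axis, bp), for each eluate with 4 libraries pooled, shown up to 4000 bp. In the high and medium eluates chromosome 3 has tops at 500 to 600 and 800 to 900 bp, with a lower one at 1300 to 1400 bp in the high eluate. Chromosome 8 has 1 broad top at 1200 to 1500 bp in these eluates. In the low eluate the highest class is 700 to 800 bp on chromosome 3 and 1300 to 1400 bp on chromosome 8.

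Peaks of both clusters were tall in tags. In the chromosome 3 window the median pileup was 199, 214, 206 and 192 tags in HTE_1, HTE_2, HTO_1 and HTO_2. Medium libraries had 160 and 160 tags in tender and 214.5 and 213.5 in tough beef, and low libraries had 89 and 107 in tender and 148 and 120 in tough beef. The high and low libraries did not overlap, and in both the medium and the low eluate each tough library was above each tender one. Peaks on the rest of chromosome 3 had medians of only 9 to 18 tags, so peaks in the window were 8.48 to 17.9 times taller within a library.

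The order of the eluates was another one in the chromosome 8 window. High libraries had the lowest medians, 108 and 124.5 tags in tender and 108 and 109 in tough beef. Medium libraries had the highest, 171 and 168 in tender and 164 and 169 in tough beef, and low libraries lay at 118 and 143 in tender and 160 and 152.5 in tough beef. High and medium libraries did not overlap, the low libraries were all below the medium ones, and LTE_1 fell below HTE_2. Beside this, the rest of chromosome 8 had medians of 143 to 180 tags in the high eluate, 15 to 20 in the medium eluate and 11 to 46 in the low eluate.

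Other dense windows lay on that chromosome. When the windows at 36, 56 and 110 Mb, each with 10 or more times the chromosome's median number of peaks, were set aside, the remaining peaks of the high eluate had medians of 22.5 to 68 tags. Medium and low libraries then had 12 to 13 and 10 to 14. No other window of chromosome 3 was that dense.

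Fold enrichment, the ratio of the pileup to the background that the peak caller estimated around the peak, was low in the chromosome 3 window. Its median there was 1.80 to 2.14, against 5.97 to 7.33 on the rest of the chromosome. In the chromosome 8 window it was 2.98 to 3.09 in the high, 2.49 to 2.83 in the medium and 2.02 to 2.21 in the low eluate. The 3 eluates did not overlap there, and fold enrichment was lower from high to medium to low, an order that pileup did not follow. The rest of chromosome 8 had 3.05 to 4.16 in the high, 5.71 to 6.49 in the medium and 5.32 to 6.09 in the low eluate. That rest includes the other dense windows of the chromosome. The one at 56 Mb had a mean of 2.13 in the high eluate, and fold enrichment without those windows is not given.

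The background behind these ratios can be worked back from pileup and fold enrichment. It was estimated without an input control, from the library's own tags. Its median was 42.2 to 114 tags in the chromosome 3 window and 34.7 to 79.1 tags in the chromosome 8 window, whereas it was 0.485 to 1.11 tags on the rest of chromosome 3. On the rest of chromosome 8 it was 34.7 to 55.1 tags in the high eluate, beside 34.7 to 41.3 in the window, and 0.847 to 1.49 and 0.628 to 5.04 tags in the medium and low eluate. In the chromosome 3 window a fold enrichment of 3 or more was reached by 1 to 12 peaks per library, or 0.775% to 6.78% of them. The share was 78.8% to 93.6% on the rest of that chromosome. In the chromosome 8 window 88 to 93 peaks of a high library, 35 to 77 of a medium library and 11 to 14 of a low library reached that fold. As shares these were 48.4% to 53.3%, 15.2% to 35.5% and 5.56% to 7.87%, against 50.6% to 56.8%, 64.6% to 73.8% and 73.9% to 76.8% on the rest of that chromosome. Both the background and the shares of the rest of chromosome 8 include its other dense windows.

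Significance values did not follow fold enrichment. The median −log10 of the q-value was 7.20 to 18.1 in the chromosome 3 window, against 6.48 to 13.3 on the rest of chromosome 3. In LTE_1 that window was below the rest, at 7.20 against 7.49. The chromosome 8 window had 11.1 to 26.6, against 6.61 to 19.0 on the rest of chromosome 8. Median pileups in the chromosome 3 window stood at 28.7% to 66.2% of the ceiling, so most peaks were short of it.

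**Figure D4:**
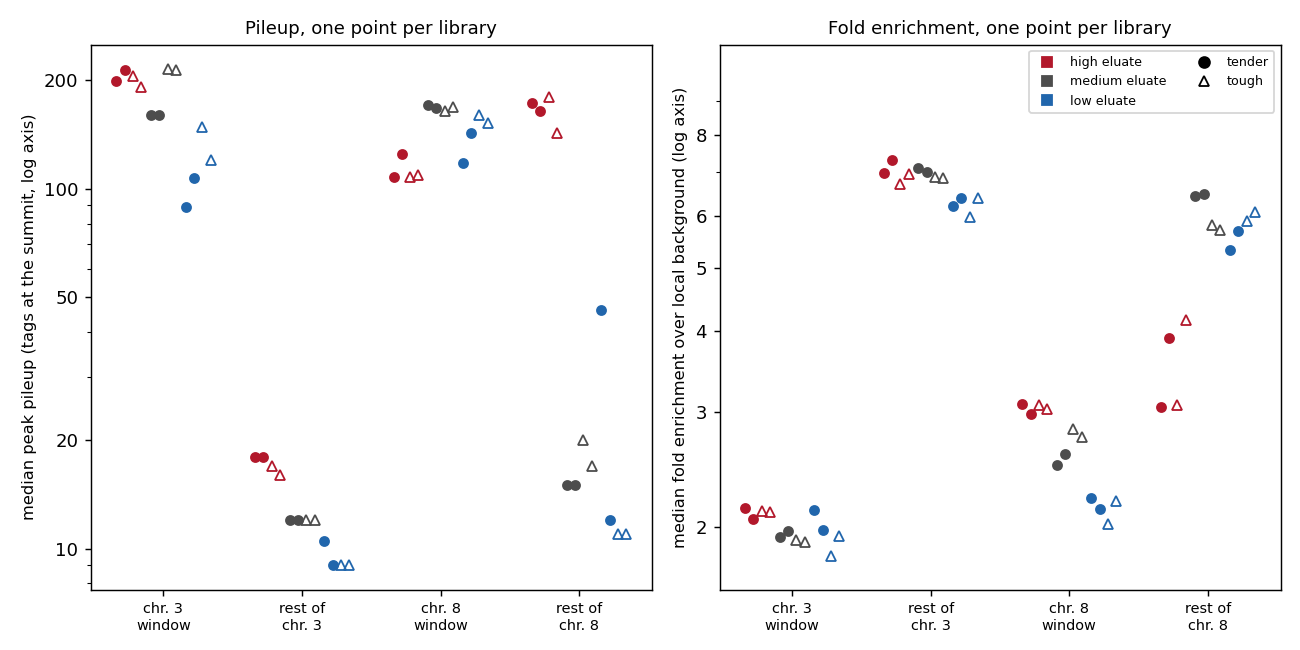
Median pileup (left, tags, log axis) and median fold enrichment (right, log axis) in each window and on the rest of its chromosome, with 1 point per library, filled circles for tender and open triangles for tough beef, and high, medium and low eluates in red, grey and blue. On chromosome 3 the window lies at 89 to 214.5 tags and the rest at 9 to 18, while fold enrichment is 1.80 to 2.14 in the window and 5.97 to 7.33 in the rest.

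Fold enrichment was highest at the rims of the clusters. For summits within 5 kb of either end of the chromosome 3 cluster, the median fold enrichment was 2.53 ± 0.0586 (SD, n = 4) in the high eluate, against 2.09 ± 0.0391 further inside. The values were 2.38 ± 0.0634 against 1.91 ± 0.0263 in the medium eluate and 2.29 ± 0.173 against 1.93 ± 0.123 in the low eluate. In the chromosome 8 cluster the difference was larger, with 4.91 ± 0.312 against 3.01 ± 0.0480 in the high, 4.60 ± 0.139 against 2.64 ± 0.154 in the medium and 2.91 ± 0.184 against 2.12 ± 0.0823 in the low eluate. The rim was above the inside in 4 of 4 libraries of each eluate.

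Pileup differed little along the clusters, and the background changed. In the high eluate of chromosome 8, rim peaks had a pileup of 120 ± 9.72 tags and inner peaks 112 ± 7.88, while the background was 23.2 ± 2.51 and 36.9 ± 3.04 tags. On chromosome 3 the same eluate had 184 ± 14.1 and 204 ± 9.18 tags of pileup over 66.5 ± 5.04 and 97.2 ± 6.46 tags of background. Only 6 to 13 peaks of a library lay on the rims, and the distance of 5 kb was chosen after the values had been seen. The peak caller took its regional background over 10000 bp, so at a rim part of that stretch lay outside the cluster, and its part in the difference was not tested.

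**Figure D5:**
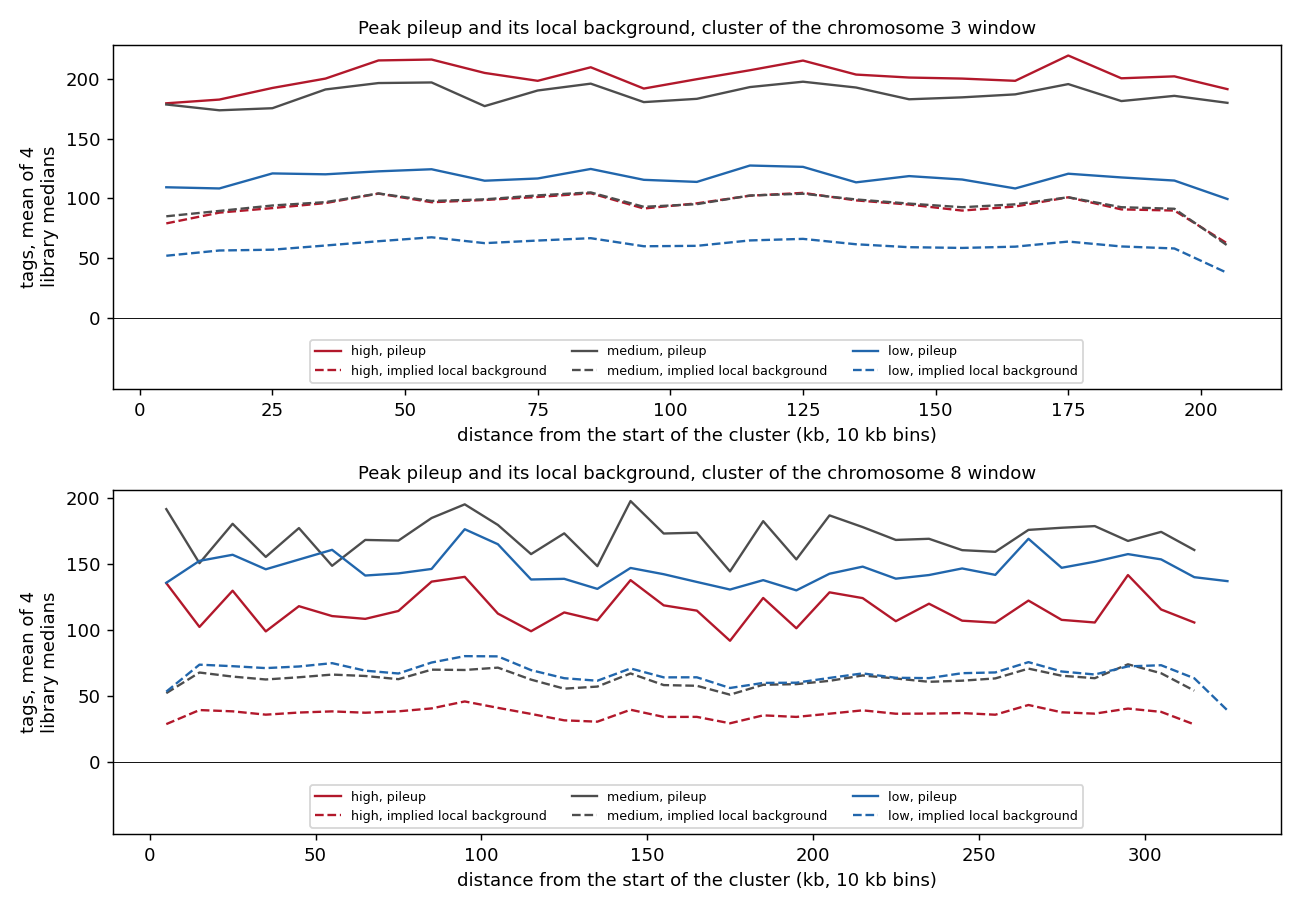
Peak pileup (solid lines) and the local background worked back from fold enrichment (dashed lines), in tags (vertical axis, mean over 4 libraries of the library medians), in bins of 10 kb along each cluster (horizontal axis, kb from its start), with high, medium and low eluates in red, grey and blue. High and medium lie above low on chromosome 3, the high eluate lies lowest on chromosome 8, and the background falls in the first and last bin of most lines.

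The difference between eluates was tested on the log2 ratio of the median pileup in the window to that on the rest of its chromosome. This ratio is taken within a library, and the windows were chosen by their number of peaks. Windows and tests were chosen with earlier results of these data known, so the p-values do not come from an independent choice. The eluates came from serial elution of the same captures, so libraries of different eluates are not from separate animals. In the chromosome 3 window the mean log2 ratio was 3.56 ± 0.06 (SD, n = 4) in the high, 3.95 ± 0.24 in the medium and 3.61 ± 0.40 in the low eluate. The high eluate was lower than the medium by 0.39, with no overlap of the libraries (exact permutation test, two-sided, p = 0.0286, adjusted p = 0.0571 by Benjamini-Hochberg over 6 comparisons). This missed the threshold of 0.05, as did high against low (difference −0.05, adjusted p = 0.96 by the exact permutation test) and medium against low (0.34, adjusted p = 0.3 by the same exact test).

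For chromosome 8 the mean log2 ratio was −0.55 ± 0.18 (SD, n = 4) in the high, 3.34 ± 0.22 in the medium and 3.15 ± 1.20 in the low eluate. High libraries were the only ones with a ratio below 0, that is, with peaks in the window shorter than on the rest of the chromosome. This sign came with the other dense windows of chromosome 8, since without them the rest had 68, 24, 53 and 22.5 tags in HTE_1, HTE_2, HTO_1 and HTO_2, all below the window. The difference was −3.89 from medium and −3.70 from low, each with p = 0.0286, the smallest that 4 against 4 libraries allow, and an adjusted p = 0.0571 (exact permutation test). These sizes depended on the reference and the summary. They shrank to −2.13 and −2.12 with the other dense windows left out of the reference and to −1.26 and −1.25 with all other peaks of the genome as the reference. They were −1.60 and −1.87 with the mean of log2 values in place of the median, and −0.79 and −1.78 when every library was cut to 9944 peaks. The medium and low libraries overlapped (0.19, adjusted p = 1 by the exact permutation test), and without LTE_1 that difference was −0.41.

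On chromosome 3 the ranges of median peak width in the window and on the rest of the chromosome overlapped. Within a library the largest differences were in the low eluate. There LTE_1, LTE_2, LTO_1 and LTO_2 had 214.5, 214, 242 and 217 bp in the window, against 205, 171, 195 and 173 bp. On chromosome 8 peaks in the window were wider than the whole rest in every library. This did not hold in the high eluate with the other dense windows left out of the rest. The rest then had 294, 298, 294 and 287 bp in HTE_1, HTE_2, HTO_1 and HTO_2, against 280, 296, 295 and 313 bp in the window. The median width was 212 to 261.5 bp in the chromosome 3 window and 171 to 282 bp on the rest of the chromosome. In the chromosome 8 window it was 280 to 345 bp, against 188 to 274 bp. High libraries had 244, 250, 250.5 and 251 bp in the chromosome 3 window, each below the rest of the chromosome in its own library. All medium and low libraries had wider peaks in the window than outside it.

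That contrast between the high and the other eluates passed the test when libraries were taken as unpaired. On chromosome 3 the log2 ratio of the width in the window to the rest was −0.13 ± 0.04 (SD, n = 4) in the high, 0.11 ± 0.04 in the medium and 0.26 ± 0.13 in the low eluate. High differed from medium by −0.23 and from low by −0.38, each without overlap (exact permutation test, adjusted p = 0.0429). On chromosome 8 the ratios were 0.13 ± 0.05, 0.50 ± 0.13 and 0.58 ± 0.17, and high differed by −0.37 from medium and −0.45 from low (exact permutation test, adjusted p = 0.0429 for both). Medium and low overlapped in both windows (exact permutation test, adjusted p = 0.137 on chromosome 3 and 0.571 on chromosome 8).

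These width calls were at the smallest p the design allows, and leaving out any 1 of the high libraries raised all 4 adjusted p-values to 0.0857 with the directions unchanged. With the same number of peaks, 9944, taken from each library, the difference between high and medium on chromosome 3 turned to 0.08 (exact permutation test, p = 0.171), and that on chromosome 8 shrank to −0.12 (adjusted p = 0.0686).

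The place of the high eluate in the order of pileup differed between the clusters. By mean, the high eluate had the tallest peaks on chromosome 3 and the shortest on chromosome 8, while medium was above low in both. In tough beef on chromosome 3, though, the medium libraries, at 214.5 and 213.5 tags, were above the high ones, at 206 and 192. These pileups were not scaled to depth. On the log2 ratio to the rest of chromosome 3 the high eluate had the lowest mean, 3.56, against 3.95 in the medium and 3.61 in the low eluate. The ratio of the median pileup in the chromosome 3 window to that in the chromosome 8 window, taken within a library, was 1.84, 1.72, 1.91 and 1.76 in HTE_1, HTE_2, HTO_1 and HTO_2. It was 0.936 and 0.952 in medium tender and 1.31 and 1.26 in medium tough libraries. In the low eluate it was 0.754 and 0.748 in tender and 0.925 and 0.787 in tough beef. The 3 eluates did not overlap, and in the medium and low eluates the tough libraries were above the tender ones. This ratio involves no peak outside the windows, but it was chosen after the values had been seen and was not tested.

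By mean, these orders of unscaled pileup also held in the regions that every library called. In the chromosome 3 window 29 of 203 regions, or 14.3%, had a peak in all 12 libraries, and in the chromosome 8 window 123 of 256 regions, or 48.0%, against 4.36% of all regions of the genome. Of the 29 regions on chromosome 3, 26 had their highest mean pileup in the high eluate and 3 in the medium eluate. Of the 123 on chromosome 8, 107 had it in the medium eluate and 16 in the low eluate, and none in the high eluate. The median pileup of the 29 regions was 212 ± 13.4 tags in the high, 201 ± 34.2 in the medium and 122 ± 29.6 in the low eluate (SD, n = 4), and that of the 123 regions was 119 ± 10.1, 184 ± 3.11 and 150 ± 21.3 tags. In the 29 regions the medium libraries ran from 169 to 233 tags and overlapped the high ones, at 196 to 225.

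Most regions of the windows recurred across eluates. The windows were chosen by their number of peaks, which can favour regions called in many libraries. These shares, and those called in all 12 libraries, are therefore a description. A peak in at least 1 library of each eluate was found for 133 regions of chromosome 3 (65.5%) and 183 of chromosome 8 (71.5%), against 14.1% of all regions. On the rest of chromosomes 3 and 8 the shares were 11.6% and 22.0%. Regions of a single library made up 14.8% and 5.47%, against 49.6% and 40.9% on the rest of chromosomes 3 and 8 and 44.9% of all regions. Of the regions called in all 4 high libraries and no low library there were 3 on chromosome 3 and 2 on chromosome 8, where the share over all regions was 1.95%. The reverse, all 4 low libraries and no high one, held for 2 regions on chromosome 3 and 22 on chromosome 8, where the share over all regions was 1.55%.

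The 22 regions on chromosome 8 were spread through the cluster, with 21 inside it. They had a median width of 309 bp, against 406.5 bp for all regions of the window. All 4 medium libraries called 7 of them, and none of the medium libraries called 3. Their peaks had a median pileup of 133 tags in the low and 123 in the medium eluate, less than the 145 and 168 tags of all regions of the window.

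Some single regions had values that set them apart. On chromosome 3, among regions called in all 12 libraries, the one with the highest minimum fold enrichment was chr3:82912059-82912389, the last of the cluster. Its fold enrichment was 3.63, 3.16, 3.64 and 3.50 in the high, 3.42, 3.45, 3.87 and 3.27 in the medium and 2.90, 3.60, 3.10 and 3.10 in the low libraries. The next in rank were its neighbours, chr3:82911319-82911873 and chr3:82910685-82911023, with minima of 2.31 and 2.38. All 3 lay within 2 kb of the end of the cluster.

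On chromosome 8 the highest minimum belonged to a region outside the cluster, chr8:74363501-74363947. It had a fold enrichment of 24.0 to 34.8 in the 12 libraries and a pileup of 66 to 113 tags. A pileup lower than the cluster's median thus came with a fold enrichment many times higher. The next were at the start of the cluster, chr8:74484794-74485346 and chr8:74485961-74486589, with minima of 3.56 and 3.41 and pileups of 113 to 208 and 142 to 232 tags.

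The widest peak of a merged list was 988 bp on chromosome 3 (chr3:82863293-82864280, MTO, pileup 277) and 1568 bp on chromosome 8 (chr8:74583240-74584807, LTO, pileup 249). Both had a low fold enrichment, 1.89 and 2.09. The tallest peaks in relation to their library's median were chr3:82861940-82862214 in MTO_2, with 254 tags or 19.5 times that median, and chr8:74783054-74783793 in LTO_1, with 304 tags or 30.4 times. The latter reached 92.1% of the highest pileup its library allowed.

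Tough and tender beef were compared within each eluate, where 2 against 2 libraries cannot give a p below 0.333. The share of chromosome 3 peaks in the window was 26.5% and 23.7% in high tender and 28.9% and 24.1% in high tough libraries. It was 11.6% and 12.4% in medium tender and 17.8% and 16.6% in medium tough libraries, and 12.4% and 10.4% in low tender and 10.7% and 11.4% in low tough libraries. Only the medium eluate was without overlap, with a log2 ratio of tough to tender of 0.52, which was 0.19 with equal numbers of peaks and −0.26 among peaks with a fold enrichment of 3 or more. The other ratios were 0.08 in the high and −0.04 in the low eluate.

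On chromosome 8 the shares were 22.6% and 22.2% in high tender and 22.8% and 22.4% in high tough libraries, which overlapped. Medium libraries had 14.6% and 13.9% in tender and 16.9% and 16.5% in tough beef, and low libraries had 26.8% and 19.7% in tender and 13.5% and 15.0% in tough beef. The log2 ratio of tough to tender was 0.01 in the high, 0.23 in the medium and −0.69 in the low eluate, the last 2 without overlap and of opposite sign. With the number of peaks made equal within each eluate, they were 0.00014 and −0.09. The total number of peaks of the libraries ran opposite to these shares: over the genome MTE libraries had 34468 and 36663 peaks against 24746 and 25571 in MTO, and LTE had 9944 and 17487 against 28671 and 29418 in LTO. The beef with more peaks had the lower share in both eluates, and the part of the totals in the shares was not tested.

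The number of peaks itself differed most in the low eluate of chromosome 3, where tough libraries exceeded tender ones by 1.14 on the log2 scale. The rest of chromosome 3 moved with it, at 324 and 664 peaks in low tender and 1065 and 1046 in low tough libraries, and the share in the window overlapped between the beefs, as given above. On chromosome 8 the low eluate differed by 0.17, and the high and medium eluates of both windows lay between −0.09 and −0.02. The rows of LTE_1 and LTE_2 in the map of summits are thin on chromosome 3 and not on chromosome 8, and the difference between the clusters was not tested.

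A region was called group-specific in an eluate when tender and tough beef differed fully there, with peaks in the 2 libraries of either beef and no peak in the other 2. In the low eluate of chromosome 3, 36 of 161 regions (22.4%) were tough-specific and 2 (1.24%) were tender-specific, against 9.24% and 0.501% of all low regions. The tough share was above the background, but with the same number of peaks taken from each library the group-specific regions there fell from 38 to 4 for both beefs together. On chromosome 8, 3 of 240 low regions were tender-specific (1.25%) and 11 were tough-specific (4.58%), the latter below the background of 9.24%. Both kinds together numbered 38 on chromosome 3 and 14 on chromosome 8, and without LTE_1 45 and 26.

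In the high eluate 7 tender- and 2 tough-specific regions were found among 148 on chromosome 3, or 4.73% and 1.35%, and 2 and 2 among 192 on chromosome 8, or 1.04% each. The background was 3.62% and 1.66%. The medium eluate gave 7 and 6 of 199 regions on chromosome 3 (3.52% and 3.02%) and 12 and 4 of 238 on chromosome 8 (5.04% and 1.68%), beside 8.74% and 1.83% of all medium regions. In these eluates no share of specific regions was above 5.04% of the window. Regions common to all 4 libraries of an eluate numbered 108 of 148, 132 of 199 and 36 of 161 on chromosome 3 in the high, medium and low eluate, so that the low eluate had only 22.4% shared. On chromosome 8 they numbered 154 of 192, 203 of 238 and 158 of 240. Over the genome 43%, 27.4% and 10.6% of regions were so shared.

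Most tough-specific regions of the low eluate had peaks from tender beef in the other eluates. When peaks of all 12 libraries were joined, 33 such regions remained on chromosome 3, all inside the cluster. Of these, 30 were called in all 4 medium libraries and 23 in all 4 high ones, and 23 in all 8, beside 131, 107 and 103 of all 203 regions of the window. Of the 33, 2 had no peak in any medium library and 2 had none in any high library. The strongest was chr3:82708538-82708838, the first of the cluster, with a fold enrichment of 1.97 and 2.11 and a pileup of 99 and 82 tags in LTO_1 and LTO_2. No fold enrichment among these 36 regions exceeded 2.11.

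The strongest of the other groups, where they lay inside the clusters, had similarly low values, at most 2.83. In the high eluate they were chr3:82743228-82743449 in tender beef (fold enrichment 2.03 and 1.91) and chr3:82746733-82746990 in tough beef (1.99 and 1.97), with chr8:74622123-74622323 (2.83 and 2.52) and chr8:74743853-74744131 (2.54 and 2.50) on chromosome 8. Medium tough-specific ones were chr3:82793464-82793685 (1.68 and 1.72) and chr8:74728513-74728786 (2.22 and 2.16), and the medium tender-specific one of chromosome 8 was chr8:74490213-74490429 (2.22 and 2.09). In low tender beef they were chr3:82795075-82795268 (2.07 and 1.90) and chr8:74604648-74604865 (2.32 and 2.30).

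The 2 remaining strongest regions lay outside the clusters and had a far higher fold enrichment. They were chr3:82423226-82423413 in medium tender beef, with 7.87 and 8.65 at a pileup of 10 and 11 tags, and chr8:74346664-74346840 in low tough beef, with 7.97 and 6.41 at 11 and 8 tags.

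A few other dense windows of the genome had like values. The window from 28000001 to 29000000 on chromosome 27 had a median pileup of 110 ± 5.80, 165 ± 4.03 and 142 ± 18.4 tags in the high, medium and low eluate (SD, n = 4). In the chromosome 8 window the means were 112 ± 8.10, 168 ± 2.94 and 143 ± 18.3. Median fold enrichment was 3.07, 2.71 and 2.15 there and 3.04, 2.66 and 2.14 here, and median spacing was 1608, 1452 and 1467 bp there and 1535, 1397 and 1382 bp over the whole chromosome 8 window.

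The chromosome 3 window resembled the one from 56000001 to 57000000 on chromosome 8. That window had a median pileup of 221 ± 12.8, 199 ± 34.4 and 121 ± 26.4 tags, beside 203 ± 9.43, 187 ± 31.2 and 116 ± 24.8 on chromosome 3. Its number of peaks was 102 ± 8.18, 133 ± 4.57 and 83.3 ± 33.2, beside 128 ± 6.08, 165 ± 10.8 and 96.3 ± 42.2. Fold enrichment was 2.13, 1.94 and 1.97, beside 2.10, 1.93 and 1.96. Median spacing was 1269, 924 and 1776.5 bp, beside 1315, 1057 and 1887 bp over the whole chromosome 3 window. Both were picked by eye among the 7 windows of the genome with most peaks over the 12 libraries, and no measure of likeness was tested.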

How the data were processed

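MBD-seq was performed on 12 libraries of Angus muscle, 2 per condition, grouped by the labels. Reads were filtered by the authors in SOAPnuke and placed on bosTau8 by BWA (0.7.7 in the submitters' processing notes), and those with a unique position were kept. The authors ran MACS2 with no input control, a q-value limit of 0.01, 1 tag allowed per position and 10000 bp for the regional background. Version 2.1.1.20160309 was used for single libraries and 2.1.0.20150731 for the pooled replicates. Each peak of a deposited list has a width in bp and a pileup, which is a signal in tags that was left unscaled by the authors. It also has the authors' fold enrichment, which is a ratio, and the deposited −log10 values of p-value and q-value. The fold enrichment of MACS2 is the pileup plus 1 over the local background plus 1, from which the background was worked back. A difference in depth, here 3677473 to 7981292 tags per library after duplicates were removed, is part of what was called. Counting error is not given for pileups, and the spread between libraries was used.

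The windows, lists and tests were chosen with earlier results of these data known. Values were computed with Python 3.11.15, numpy 2.4.6 and pandas 2.3.3, and figures were drawn with matplotlib 3.10.9. Peaks with 1 bp or more in common were joined into regions, and the code was checked against bedtools 2.31.1 and tested on simulated data. The test between eluates was the exact permutation test, two-sided, on the difference of means of 4 libraries against 4, with Benjamini-Hochberg adjustment over the 6 comparisons of a measure and a threshold of 0.05. Shares, numbers and spacing were not tested. Adjacent distances were taken between summits inside a cluster.

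Regions were named, in each window, by these rules: the 3 regions called in all 12 libraries with the highest minimum fold enrichment, the widest merged peak, the group-specific region of each eluate and beef with the highest lower fold enrichment of its 2 libraries, the 50 kb bin with most regions and the tallest pileup in relation to its library's median. Alternatives were a stricter q-value, an equal number of peaks per library, other references and summaries, the merged lists, other rules for joining peaks, each library left out in turn, and a pairing by replicate number. Leaving the other dense windows out of the reference and a minimum fold enrichment of 3 were added after the data had been seen. Sequences, genes and repeats at these positions are not analysed here.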

Additional observations from a re-analysis of the deposited data

Results flagged for a closer look

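In 42 groups of 4 libraries, 3 values of 2 libraries stood apart from the rest of their group by Dixon's criterion, which chance gives in about 1 in 20 groups. LTE_1 had a log2 ratio of peak width, chromosome 3 window over rest, of 0.065 (low eluate), and a log2 ratio of pileup on chromosome 8 of 1.36. HTE_2 had a median pileup of 124.5 tags in the chromosome 8 window, above the other high libraries.

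Tough minus tender differences had opposite signs in different eluates for 4 measures, with every library of each beef on its own side, and these differences between eluates were not tested. The median spacing on chromosome 3 differed by 41.75 bp in the medium and by −1183.25 bp in the low eluate. The share of chromosome 8 peaks in the window differed by 2.47 percentage points in the medium and by −9.01 in the low eluate. The log2 pileup ratio on chromosome 8 differed by −0.32 in the medium and by 1.36 in the low eluate. This medium difference came with the other dense windows of chromosome 8. Without them the rest had 13 and 13 tags in MTE and 13 and 12 in MTO, in place of 15, 15, 20 and 17. Tender and tough medium libraries then overlapped in the ratio. In LTE_1 the rest had 46 tags with those windows and 14 without. The log2 width ratio on chromosome 8 differed by 0.064 in the high and by −0.23 in the medium eluate.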

How the results depend on the processing

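The called differences in width rest on 4 libraries against 4, where no p can be below 0.0286, and the differences between tough and tender beef on 2 against 2. Peaks were called at unequal depths, and neither a change in the number of tags nor a peak below the authors' threshold can be seen in the lists. The cause of the changes below was not tested. Using all other peaks of the genome as the reference, leaving other dense windows out of the reference and asking for 50% overlap changed no call and no direction, although with the other dense windows left out the chromosome 8 pileup differences of high from medium and low were −2.13 and −2.12 in place of −3.89 and −3.70, and −1.26 and −1.25 with all other peaks.

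Whether same-numbered libraries of different eluates deviated together was examined over 152 regions called in all 12 libraries. In tender beef the correlations were −0.17 (HTE and MTE), −0.0019 (HTE and LTE) and −0.069 (MTE and LTE). In tough beef they were all positive, at 0.083 (HTO and MTO), 0.26 (HTO and LTO) and 0.12 (MTO and LTO). These values cannot decide whether a number marks the same animal across eluates, since the direction differed between the beefs. Pairing the libraries by number (replicate block) left the width differences at −0.23 and −0.38 on chromosome 3 and −0.37 and −0.45 on chromosome 8. None of the 4 calls was then kept, since 4 pairs allow no p below 0.125 (exact sign-flip test).

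With a −log10 q of at least 5, the pileup difference of high minus low on chromosome 3 turned to 0.016, the high share on chromosome 8 was 22.97% and its log2 ratio of tough to tender 0.048. With the mean of log2 values in place of the median, the pileup difference of medium minus low on chromosome 8 turned to −0.27. With 9944 peaks taken from each library, the pileup differences turned to 0.18 (high minus medium, chromosome 3), −0.25 (medium minus low, chromosome 3) and −0.98 (medium minus low, chromosome 8). The width differences were then 0.076 for high minus medium and −0.41 for medium minus low on chromosome 3, and −0.12 and −0.25 on chromosome 8. Both differences of medium from low passed the threshold there, and neither difference of high from medium did.

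Shares were then 29.01%, 24.1% and 13.5% on chromosome 3 and 23.8%, 26.9% and 25.6% on chromosome 8 (high, medium, low). In the merged lists they were 19.3%, 7.13% and 4.56% on chromosome 3 and 19.4%, 8.48% and 6.25% on chromosome 8. Among peaks with a fold enrichment of 3 or more they were 0.947%, 0.653% and 0.400% on chromosome 3 and 22.0%, 6.35% and 2.02% on chromosome 8.

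The log2 ratio of tough to tender shares, with the number of peaks made equal within an eluate, was 0.19 (medium) and 0.22 (low) on chromosome 3 and 0.00014 (medium) and −0.085 (low) on chromosome 8. In the merged lists it was 0.26 (high) and −0.44 (low) on chromosome 3 and 0.11 (high) and 0.41 (medium) on chromosome 8. Among peaks of 3-fold or more it was 1.68, −0.26 and 0.32 on chromosome 3 and 0.056, 1.33 and −1.11 on chromosome 8 (high, medium, low).

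Group-specific regions (both beefs together) with an equal number of peaks numbered 4 in the low eluate of chromosome 3, and 7 and 9 in the high and medium eluates of chromosome 8. With peaks up to 500 bp apart joined there were 4, 5 and 18 on chromosome 3 (high, medium, low), and 2 and 5 on chromosome 8 (high, medium).

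Leaving out each library in turn, the chromosome 3 pileup difference of high minus low ran from −0.23 to 0.092 (0.092 without LTO_1), and the chromosome 8 difference of medium minus low from −0.41 to 0.43 (−0.41 without LTE_1). The width difference ran from −0.25 to −0.22 for high minus medium, from −0.45 to −0.36 for high minus low and from −0.21 to −0.13 for medium minus low on chromosome 3, the last passing the threshold without LTE_1. On chromosome 8 it ran from −0.41 to −0.33 for high minus medium and from −0.53 to −0.40 for high minus low. All 4 calls were lost without any 1 of the high libraries. Group-specific regions ran from 14 to 18, 20 to 27 and 45 to 64 on chromosome 3 and from 7 to 15, 19 to 23 and 20 to 37 on chromosome 8 (high, medium, low), against 9, 13 and 38, and 4, 16 and 14 with all libraries, since a single library then stands for its group.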
